A study of Mus musculus with 2 samples.

Results

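The 10 genes described here, of the cytosolic and mitochondrial heat shock response, were followed through the single cells of dystrophic mouse muscle. They were the inducible HSP70 genes Hspa1a and Hspa1b, the constitutive HSC70 gene Hspa8, the HSP110 gene Hsph1, the small heat shock protein gene Hspb1, the chaperonin genes Hspd1 and Hspe1, the J-domain genes Dnajb1 and Dnaja4, and the co-chaperone gene Bag3. They were picked by symbol from the 24984 gene symbols of the count tables, and each symbol named 1 row. They held 712717 of 45556596 UMIs in the Ctrl library (1.56%) and 556282 of 33815155 in the dKO library (1.65%), where a UMI (unique molecular identifier) stands for 1 captured RNA molecule.

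Heat shock proteins are chaperones that keep other proteins folded, or help to refold or remove them. The transcription factor HSF1 induces many of them when proteins unfold, by binding heat shock elements, which are runs of GAA units in alternating orientation near the start of the gene. In muscle these proteins are known for protecting fibres under mechanical load, and their genes also respond quickly when a tissue is warmed and digested with enzymes to free its cells.

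Live cells were sorted from hind limb muscles of mdx mice, which lack dystrophin and model Duchenne muscular dystrophy, and their RNA was counted by droplet single-cell RNA-seq. The Ctrl mice carried Pax7CreERT2/R26YFP, Yy1+/+ and mdx, and the dKO mice Pax7CreERT2/R26YFP, Yy1 f/f and mdx, so the recombinase, the YFP reporter, the mdx allele and tamoxifen were common to both groups. Tamoxifen was given at 1.5 months of age, and cells were taken 1 month later from 3 mice pooled into 1 library per group. The driver acts in Pax7-expressing muscle stem cells (MuSCs), so in every other cell class the Yy1 gene was meant to be intact.

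With 1 library per group nothing below could be checked against replicates, and no test was run. A difference between the libraries cannot be told apart from a difference between the mice or preparations behind them. Intervals are at the 95% level and hold counting error alone (exact Poisson for levels, exact binomial for shares and for the dKO to Ctrl ratio). Levels are given as CPM, the UMIs of a gene per 1000000 UMIs of the same cells, summed over the cells of a class.

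After filtering, 4010 Ctrl cells (median 7880 UMIs) and 3079 dKO cells (median 7806) were kept, and 6 cell barcodes occurred in both libraries. Clustering was run without the genes described here and gave 22 clusters, 21 of which fell into 11 classes named from marker genes. In MuSC-like cells Yy1 stood at 160 CPM in Ctrl (369 UMIs, 117 cells) and 4.85 CPM in dKO (3 UMIs, 30 cells), and in the 9 other classes with at least 100 cells its log2 ratio lay between -0.57 and 0.32. The library labels thus matched the deleted gene.

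The promoters of several of these genes carry the letters of a heat shock element, and the stretches below are printed to show them. They are RefSeq windows of GRCm38.p6, the build mm10 named in the submitters' processing notes, running from 250 bases upstream of a transcript start. Capitals mark GAANNTTC in Hspa1a, Hspa1b and Hspb1, and the run of alternating GAA and TTC units in the promoter shared by Hspe1 and Hspd1.
Hspa1a promoter, chr17:34972229-34972284, minus strand, bases -128 to -73 from the start: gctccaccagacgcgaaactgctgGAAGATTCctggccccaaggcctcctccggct
Hspa1b promoter, chr17:34959311-34959366, minus strand, bases -128 to -73 from the start: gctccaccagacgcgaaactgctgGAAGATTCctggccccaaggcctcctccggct
Hspb1 promoter, chr5:135887778-135887853, plus strand, bases -141 to -66 from the start: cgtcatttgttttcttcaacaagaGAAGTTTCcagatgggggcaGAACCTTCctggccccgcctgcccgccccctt
Hspe1 promoter, chr1:55088053-55088082, plus strand, bases -95 to -66 from the start: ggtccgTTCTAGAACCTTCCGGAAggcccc

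The set of RefSeq windows used here held 13 for 9 of the 10 genes and none for Hspa8, whose promoter was not searched. GAANNTTC or TTCNNGAA, searched on both strands (each reads the same on both), was present in a window of 8 genes, and in 9 of the 13 windows, against 15.1% of all 32851 mouse windows. A window of Hspd1 overlaps most of that of Hspe1, and the 2 windows of Hsph1 overlap and hold the same matches. The 9 windows are therefore not independent. The form with 3 alternating units, in which any 2 bases and a further GAA or TTC follow the shorter motif it contains, occurred in windows of 3 genes (Hsph1, Hspd1 and Hspe1), against 0.603% of all windows. Dnajb1 held none of these letters in its 2 windows, Bag3 held GAANNTTC at base 43 after its start, and TATAAA (13.6% of all windows) was in no window of the 9 genes. A match describes the letters of the window and is not evidence that a factor binds there.

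Some of the genes share sequence, which bears on how their counts can be read. Hspa1a (chr17:34969190-34972156, minus strand) and Hspa1b (chr17:34956436-34959238, minus strand) lie side by side in GENCODE M21, and only 3 of the 250 bases upstream of their starts differ. Of the Hspa1a transcript, 58.8% of 50-base windows also occur in Hspa1b, but none of those in the last 500 bases do. The split of UMIs between this pair is therefore uncertain for reads away from the 3′ end. Hspd1 (chr1:55077835-55088243, minus strand) and Hspe1 (chr1:55088132-55091307, plus strand) are read in opposite directions from a shared promoter, and their annotated starts overlap.

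The level of each gene in each class was examined first, to see which cells of the muscle carried this RNA. Summed over the 10 genes, B cell-like cells stood highest in Ctrl (33843 CPM) and endothelial cell (EC)-like cells in dKO, while neutrophil-like cells were lowest in both. B cell-like cells were behind EC-like and FAP-like cells in dKO (19415 CPM). By the median of each cell's own CPM, EC-like cells stood above B cell-like cells in both libraries. Those medians were 21433 against 16266 in Ctrl and 18057 against 4687 in dKO. EC-like cells held 27802 CPM in Ctrl (464 cells) and 25298 in dKO (179 cells). Neutrophil-like cells held 4112 CPM (98 cells) and 3661 (36 cells). Cells like fibro/adipogenic progenitors (FAP-like), which are stromal cells that build the matrix of muscle, held 20299 CPM (1129 cells) and 20006 (1180 cells), and monocyte/macrophage (MO/MP)-like cells 8105 CPM (1526 cells) and 9963 (1167 cells). FAP-like cells thus held 51.2% of all UMIs of these genes in Ctrl and 66.3% in dKO, while they held 39.3% and 54.7% of all UMIs.

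Hspa1a and Hspa1b encode the HSP70 that is low in unstressed cells and rises sharply on stress. Hspa1a was highest in B cell-like cells of Ctrl, at 11541 CPM (11193 to 11896), followed by EC-like cells at 6859 CPM. In dKO this order was turned, with EC-like cells at 5812 CPM (5653 to 5975) and B cell-like cells at 5666 (5380 to 5964), whose intervals overlapped. The median B cell-like cell of Ctrl held 1292.5 CPM of Hspa1a, below the median EC-like cell (4567.1). The lowest levels were those of neutrophil-like cells (682 and 1231 CPM) and MuSC-like cells (1395 and 1451 CPM). The rank of MuSC-like cells depended on how cells were weighted, since the mean of each cell's own CPM was 3212 and 3414 for Hspa1a there, above MO/MP-like cells (2130 and 2866). Hspa1b was likewise highest in B cell-like cells of Ctrl (13021 CPM), while in dKO EC-like cells (6822 CPM) and B cell-like cells (6807 CPM) had overlapping intervals, and its lowest levels were 949 and 1307 CPM in neutrophil-like cells. Together the pair made up 72.6% of the UMIs of the 10 genes in Ctrl B cell-like cells and 64.2% in dKO, but 26.4% and 25.9% in MuSC-like cells. The MuSC-like share also depended on the weighting. By the mean of each cell's own CPM Hspa1b was at 4012 and 5004 there, beside 19258 and 22173 for the 10 genes. Hspa1a was a steady part of the pair, at 40.7% to 48.5% of its UMIs in every class and library other than lymphatic EC-like cells (32.8% and 31.5%, from 31 cells in all).

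Hspa8, the HSP70 made at all times for everyday folding, was the most even of the 10 over most classes. Outside neutrophil-like and lymphatic EC-like cells it lay between 2662 CPM (MO/MP-like) and 4684 CPM (dendritic cell-like) in Ctrl, and between 2464 CPM (B cell-like) and 3737 CPM (T cell-like) in dKO. Of the 10 neighbouring pairs in the order averaged over the libraries, 2 had intervals apart in the same direction in both libraries. Hsph1, whose product recharges HSP70 with ATP, was highest in B cell-like cells (1591 and 1098 CPM) and T cell-like cells (1311 and 1062 CPM). Its lowest values outside neutrophil-like cells were those of MO/MP-like cells in Ctrl (234 CPM) and lymphatic EC-like cells in dKO (328 CPM).

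Hspb1, a small heat shock protein that binds unfolded proteins and actin, differed widely between vascular and blood-derived cells. EC-like cells held 6974 CPM of it in Ctrl (6874 to 7075) and, in dKO, 6568 CPM (6399 to 6741). The smooth muscle and pericyte-like cells followed at 4840 and 3953 CPM, then FAP-like cells at 2886 and 3134 CPM (interval 3108 to 3162). T cell-like cells held 73.8 CPM (49.8 to 105) and 94.9 CPM (69.5 to 127), from 30 and 46 UMIs. The 3 leading classes were apart from each other in both libraries. At an equal depth of 2000 UMIs per cell, 95.7% of Ctrl and 93.0% of dKO EC-like cells held an Hspb1 UMI, against 10.6% and 10.7% of T cell-like cells. Unthinned, they came to 97.0%, 92.7%, 20.3% and 15.3%, from cells with a median depth of 4662, 3802, 3218 and 3089 UMIs.

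Hspd1 and Hspe1, which form the chaperonin of the mitochondrial matrix, had B cell-like cells at the top in Ctrl and MuSC-like cells at the top in dKO. For Hspd1, B cell-like cells went from 1420 CPM in Ctrl to 959 CPM in dKO, where FAP-like cells (975 CPM) stood above them. In MuSC-like cells Hspd1 was at 1079 CPM in Ctrl (1037 to 1122) and 1126 CPM in dKO (1044 to 1213), and Hspe1 at 1348 and 1517 CPM. MuSC-like cells lay above FAP-like cells (Hspd1 922 and 975 CPM) in both libraries for both genes, with intervals that did not overlap. The pair made up 20.9% and 21.3% of the UMIs of the 10 genes in MuSC-like cells, compared with 3.47% and 4.32% in EC-like cells. By the mean of each cell's own CPM the share in MuSC-like cells was smaller. Hspd1 was then at 1058 and 1223 and Hspe1 at 1261.5 and 1525, beside 19258 and 22173 for the 10 genes.

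The co-chaperones had their highest summed levels in FAP-like cells. Dnajb1, which hands unfolded proteins to HSP70, was at 1312 CPM (1294 to 1330) in Ctrl FAP-like cells and 1404 CPM in those of dKO. T cell-like cells of Ctrl overlapped this at 1294 CPM (1186 to 1410), those of dKO held 720 CPM, and MO/MP-like cells held 158 and 225 CPM. By the mean of each cell's own CPM, T cell-like cells led in Ctrl (1385, FAP-like 1196) and MuSC-like cells in dKO (1854, FAP-like 1498). Dnaja4, another J-domain protein, had 257 CPM in Ctrl FAP-like cells (250 to 265) and 225 CPM in those of dKO (218 to 232), but by the mean of each cell's own CPM MuSC-like cells led in dKO (308, FAP-like 251). It was near the floor in MO/MP-like cells (4.35 and 5.32 CPM, from 65 and 49 UMIs), and 1 UMI was counted in the B cell-like cells of each library. After thinning, 21.6% and 19.9% of FAP-like cells held a Dnaja4 UMI, against 0.944% and 1.24% of MO/MP-like cells (unthinned 42.0%, 41.6%, 3.08% and 3.43%, at median depths of 12134, 12118, 8143 and 6930 UMIs). Bag3, which couples HSP70 to the removal of damaged proteins by autophagy, was highest in FAP-like cells (681 and 717 CPM), followed in Ctrl by tenocyte-like cells (419 CPM) and then EC-like cells (385 CPM) and in dKO by EC-like cells (404 CPM), and lowest in B cell-like cells (47.0 and 27.1 CPM). For Dnaja4 and Bag3 the first step below FAP-like cells was the single step in the order that was apart in both libraries.

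**Figure D1:**
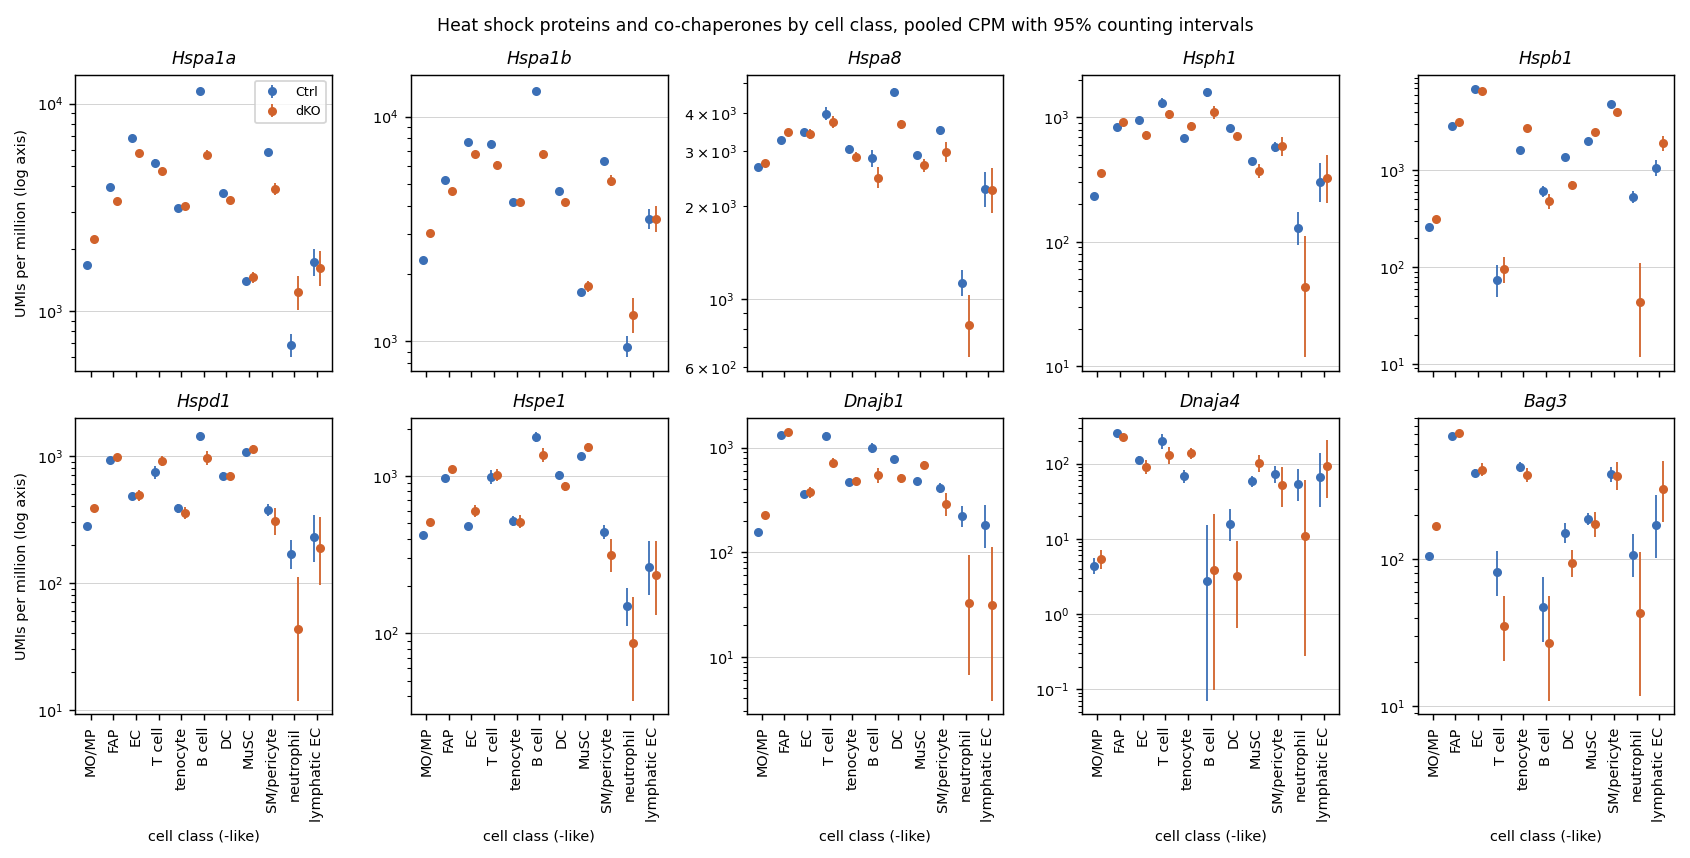
Level of each of the 10 genes (CPM, log axis) in the 11 cell classes, with 95% counting intervals and 1 library per colour. Hspb1 peaks in EC-like cells and falls to 73.8 and 94.9 CPM in T cell-like cells, Hspa8 is nearly level outside neutrophil-like and lymphatic EC-like cells, and Dnaja4 drops to 1 UMI per library in B cell-like cells.

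Genes outside the list whose level over the classes was most like the summed 10 genes were sought over 22 points (11 classes in each of 2 libraries). Among 7429 genes at 50 CPM or more in at least 1 point, the highest Pearson r were those of Swt1 (0.87), Zbtb10 (0.85), Zfp36l1 (0.84), Ier5l (0.84) and Ablim1 (0.83). Points of 1 library share its preparation and depth, so these values describe likeness across classes and carry no test.

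The question of the study's design, whether loss of Yy1 in MuSCs changes the other cells of the muscle, was then asked of these genes class by class. A ratio of 1.5-fold either way was taken as the size threshold, and genes with at least 100 UMIs in a class served as its background. MuSC-like cells held Myog, a gene of differentiating muscle cells, at 761 and 926 CPM, and Pax7 at 56.7 and 50.1 CPM. Their RNA was thus not that of stem cells alone. The summed level there was 11593 CPM in Ctrl (11454 to 11733) and 12392 CPM in dKO (12116 to 12673), a log2 ratio of 0.10 (0.06 to 0.13). The sign was not stable, since the log2 ratio was -0.026 with no doublets removed and -0.16 with the cells of at least 200 genes. By the mean of each cell's own CPM the sum was 19258 and 22173 (0.20).

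Of the 10 genes, 1 passed 1.5-fold upwards in MuSC-like cells and none downwards, against 7.51% and 13.4% of all 3982 genes tested there. It was Dnaja4, at 58.4 CPM in Ctrl (135 UMIs) and 100 CPM in dKO (62 UMIs), a log2 ratio of 0.78 (0.32 to 1.22). With the cells of at least 200 genes its log2 ratio was 0.49, below the threshold. Dnajb1 stood at 482 and 682 CPM (0.50, 0.34 to 0.66) and Hspb1 at 2027 and 2513 CPM (0.31, 0.23 to 0.39), both under 1.5-fold. By the mean of each cell's own CPM, Dnajb1 was at 1107 and 1854 (0.74), past the threshold. Hspe1 had a log2 ratio of 0.17, Hspa8 of -0.11 and Hsph1 of -0.25, with intervals apart from 0, and Hspa1a (0.06), Hspa1b (0.08) and Hspd1 (0.06) had intervals that included 0. By the per-cell mean Hsph1 turned to 0.25. For Bag3 (187 and 171 CPM, from 432 and 106 UMIs) the interval included 0. The 30 dKO cells limit what can be read here, since the intervals leave out the spread between cells.

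The main immune class, MO/MP-like cells, comprised 6 clusters, and 1 of them took that name from enriched markers that were not its leading genes. That cluster was led by Fcna, Cd163 and Ccl8, with no listed MO/MP marker among its 10 leading genes. It held Lyve1, a marker listed here for lymphatic endothelium, but lymphatic EC-like cells formed a class of their own. Its leading genes are no evidence that its cells are not macrophages. Its median depth was 0.352 of the library median, and it had 247 Ctrl and 184 dKO cells. By a choice made after seeing the data, the class is given without it first, with 1279 Ctrl and 983 dKO cells, and then with all 6 clusters.

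In these 5 clusters together the summed level was 7654 CPM in Ctrl and 8958 CPM in dKO, a log2 ratio of 0.23 (0.21 to 0.24). Of the 9 genes with at least 100 UMIs, 8 had a ratio above 1, with a median log2 ratio of 0.35 beside -0.02 over all 8939 genes tested. None passed 1.5-fold, beside 4.53% of all genes upwards and 4.88% downwards. Hsph1 had the highest log2 ratio (0.47), followed by Dnajb1 (0.43), Bag3 (0.41), Hspa1a (0.38), Hspa1b (0.35), Hspd1 (0.32) and Hspe1 (0.17). The constitutive Hspa8 was level at 2646 and 2661 CPM, and Hspb1 was the one gene below 1, at -0.12 (-0.20 to -0.04). For Dnaja4 (60 and 35 UMIs) no difference was detectable at such counts.

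With all 6 clusters the summed level was 8105 CPM in Ctrl (8060 to 8151) and 9963 CPM in dKO (9899 to 10028), a log2 ratio of 0.30 (0.29 to 0.31). All 10 genes then had a ratio above 1, with a median log2 ratio of 0.40 beside -0.02 over all 9120 genes tested. Hsph1 at 234 and 354 CPM (0.60, 0.53 to 0.67) and Bag3 at 104 and 166 CPM (0.67, 0.57 to 0.78) were then the 2 of 10 genes past 1.5-fold upwards, with none downwards, beside 4.35% and 4.73% of all genes. Both calls rested on the Fcna-led cluster. Within it Hspb1 stood at 341 CPM in Ctrl and 1212 CPM in dKO (log2 ratio 1.83), Bag3 at 229 and 586 CPM (1.35) and Hsph1 at 489 and 920 CPM (0.91).

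The 6 MO/MP-like clusters did not all move one way. The summed level was higher in dKO in 4 of the 6, by log2 ratios up to 0.44, and lower in 2. In the cluster led by the histone gene Hist1h1b and by Nusap1, which holds cycling cells (106 Ctrl and 36 dKO), Hspa1a was at 1609 CPM in Ctrl and 567 CPM in dKO (-1.51) and Hspb1 at 270 and 68.7 CPM (-1.97). Across the 6 clusters the log2 ratio of Hspb1 thus spanned -1.97 to 1.83, whereas that of Hspa8 stayed between -0.30 and 0.32.

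**Figure D2:**
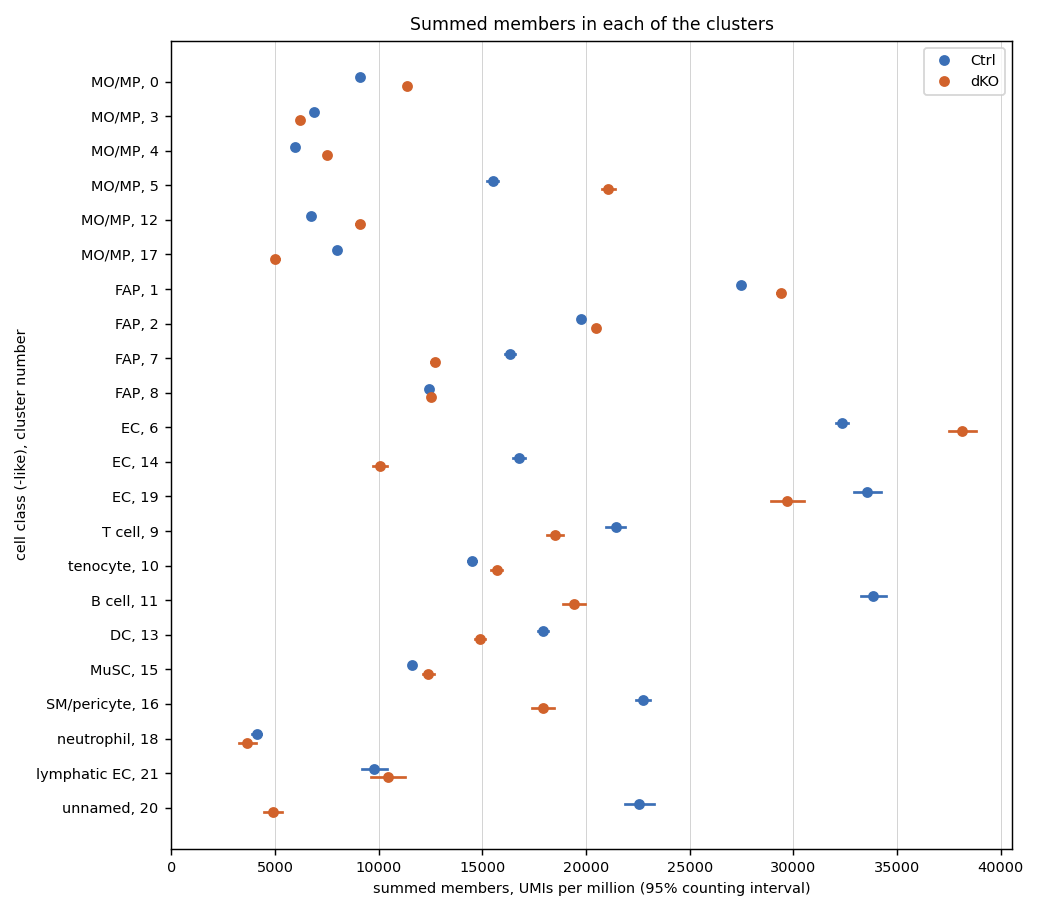
Summed level of the 10 genes (CPM, 95% counting interval) in each of the 22 clusters, each labelled by its class and cluster number, with Ctrl in blue and dKO in orange. In the MO/MP rows dKO is higher in 4 of 6 clusters, and the Selp-led EC cluster (14), the B cell cluster (11) and the Sfrp5-led unnamed cluster (20) are lower in dKO.

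FAP-like cells, which held most UMIs of these genes, kept nearly the same summed level, at 20299 CPM (20229 to 20369) and 20006 CPM (19938 to 20074), a log2 ratio of -0.02. It was higher in dKO in 3 of the 4 FAP-like clusters and lower in 1, with log2 ratios from -0.36 to 0.10. Within this sum single genes differed in direction. The inducible Hspa1a went from 3959 to 3397 CPM (log2 ratio -0.22, -0.24 to -0.20), Hspa1b from 5207 to 4687 CPM (-0.15, -0.17 to -0.14), and Dnaja4 from 257 to 225 CPM (-0.20, -0.26 to -0.13). The 7 other genes had log2 ratios between 0.07 (Bag3) and 0.18 (Hspe1), with Hspa8 and Hspd1 at 0.08, Dnajb1 at 0.10, Hspb1 at 0.12 and Hsph1 at 0.13, and the interval of each lay above 1. Hspa1a and Hspa1b were lower in dKO in each of the 4 FAP-like clusters, with the lowest ratios (-0.69 and -0.51) in the cluster led by Efhd1, Smpd3 and Pi16. None of these differences reached 1.5-fold in FAP-like cells, beside 2.74% of all 10451 genes upwards and 2.85% downwards. By the mean of each cell's own CPM the sum had a log2 ratio of 0.10, Hspa1a of -0.11, Hspa1b of -0.01 and Dnaja4 of 0.11, so the direction of the sum and of Dnaja4 depended on how cells were weighted.

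In EC-like cells, which line the vessels, the summed level was 27802 CPM in Ctrl (27602 to 28004) and 25298 CPM in dKO (24965 to 25634), a log2 ratio of -0.14. That direction was not the same at all depths, since of 3 depth bins dKO was higher in the shallowest (34284 and 36096 CPM) and the middle one (33955 and 34902 CPM) and lower in the deepest (23769 and 18837 CPM). Hsph1 had the lowest ratio, at 952 and 719 CPM (-0.40, -0.53 to -0.28), and was lower in dKO in 3 of 3 EC-like clusters. Hspe1 had the highest, at 479 and 604 CPM (0.33, 0.18 to 0.48), and was higher in 3 of 3. Hspa1a (-0.24), Hspa1b (-0.18) and Hspb1 (-0.09) were also lower, while the intervals of Hspa8 (-0.02), Hspd1 (0.01), Dnajb1 (0.04), Bag3 (0.07) and Dnaja4 (-0.30) included 0. No gene reached 1.5-fold, against 4.55% of all 4727 genes upwards and 7.13% downwards. Single clusters differed more than the class did. In the cluster led by Selp and Sele, markers of activated or venous endothelium, Hspa1a was at 3354 and 1528 CPM (-1.13), Hspa1b at 3779 and 1870 CPM (-1.02) and Hspb1 at 5158 and 2628 CPM (-0.97). In the cluster led by Gpihbp1, a capillary gene, the same genes were higher in dKO, with log2 ratios of 0.29, 0.23 and 0.29.

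The largest difference in the summed level of a named class was that of B cell-like cells. It stood at 33843 CPM in Ctrl (33246 to 34447, 142 cells) and 19415 CPM in dKO (18882 to 19960, 87 cells), a log2 ratio of -0.80 (-0.85 to -0.75). Hspa1a went from 11541 to 5666 CPM (-1.03, -1.11 to -0.94), Hspa1b from 13021 to 6807 CPM (-0.94, -1.02 to -0.86) and Dnajb1 from 989 to 545 CPM (-0.86, -1.15 to -0.57). These were the 3 of 8 genes with at least 100 UMIs that passed 1.5-fold downwards, and none passed upwards, beside 3.26% and 3.66% of all 737 genes. The other 5 were also lower, with Hspd1 at 1420 and 959 CPM, Hsph1 at 1591 and 1098 CPM, Hspe1 at 1771 and 1361 CPM, Hspb1 at 611 and 483 CPM, and Hspa8 least so at 2851 and 2464 CPM (-0.21, -0.36 to -0.07). Bag3 (17 and 7 UMIs) and Dnaja4 (1 UMI each) were too sparse to compare. With cells split by depth into 3 bins of nearly equal size, the dKO level was lower in each, at 25531, 16600 and 18447 CPM from the shallowest to the deepest bin, against 29066, 33217 and 36596 CPM in Ctrl.

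Over single B cell-like cells the share of cells that carried much of this RNA was lower in dKO, within overlapping intervals. Thinned to 2000 UMIs, 55.7% of the 97 Ctrl cells (45.2 to 65.8) but 35.2% of the 71 dKO cells (24.2 to 47.5) held at least 20 UMIs of the 10 genes, which is 1% of the cell's RNA. Those cells held a mean of 123 UMIs in Ctrl and 106 in dKO. Close to the limit, 6 Ctrl and 5 dKO cells lay within 5 UMIs of it. Thinning left out 45 Ctrl and 16 dKO cells, and without thinning 55.6% and 37.9% of cells were at or above 1%, with a median depth of 2318 and 2556 UMIs. The limit marks a range of levels, not a type of cell.

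T cell-like, dendritic cell-like and tenocyte-like cells had smaller sums of difference, with single genes past the threshold. In T cell-like cells the sum was 21426 and 18512 CPM, though in the middle of 3 depth bins dKO was higher (18105 and 21225 CPM). Dnajb1 went from 1294 to 720 CPM (-0.85, -1.05 to -0.65) and Dnaja4 from 199 to 128 CPM (-0.64, -1.14 to -0.15). They were the 2 of 8 genes with enough UMIs that passed downwards, beside 2.33% of all 1204 genes, and none passed upwards (5.07%). The mean of each cell's own CPM gave Dnaja4 a log2 ratio of -0.14, so the size of its difference depended on how cells were weighted. Bag3 (33 and 17 UMIs) and Hspb1 (30 and 46 UMIs) were below the 100 UMIs. Of the others, Hspa1b (-0.31), Hsph1 (-0.30) and Hspa1a (-0.14) were lower, Hspd1 was higher (0.30), and the intervals of Hspa8 (-0.09) and Hspe1 (0.04) included 0.

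In dendritic cell-like cells, which present antigen, the sum was 17906 and 14876 CPM (-0.27). By the mean of each cell's own CPM that direction was lost (17070 and 17229, 0.013), and Hspa1a (0.36) and Hspa1b (0.24) turned upwards. Hspb1 went from 1368 to 713 CPM (-0.94, -1.07 to -0.81), Bag3 from 150 to 93.6 CPM (-0.68, -1.07 to -0.30) and Dnajb1 from 780 to 507 CPM (-0.62, -0.79 to -0.46). Thus 3 of 9 genes passed downwards and none upwards, beside 3.36% and 6.36% of all 2593 genes. Under the 200-gene filter Hspb1 was at -0.53 and Dnajb1 at -0.52, both under the threshold, and without the 1% of cells with the largest member share Dnajb1 was at -0.39. The mean of each cell's own CPM gave -0.19 for Bag3. Hspa8 (-0.35), Hspe1 (-0.24), Hsph1 (-0.20), Hspa1b (-0.16) and Hspa1a (-0.11) were lower by less than the threshold in the summed counts, Hspd1 was level (0.01), and Dnaja4 had 18 and 3 UMIs.

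In tenocyte-like cells, the fibroblasts of tendon, the sum was 14512 and 15696 CPM (0.11). By the mean of each cell's own CPM it turned to 15304 and 14131 (-0.11), so its direction depended on the weighting. Hspb1 went from 1614 to 2706 CPM (0.75, 0.66 to 0.83) and Dnaja4 from 67.8 to 137 CPM (1.01, 0.62 to 1.40), which were 2 of 10 genes upwards and none downwards, beside 2.90% and 3.51% of all 3101 genes. Hspa1a and Hspa1b were level here (3131 and 3215 CPM, 4175 and 4187 CPM). Hsph1 was higher (0.34) and Hspa8 lower (-0.09), and the intervals of Bag3 (-0.19), Hspd1 (-0.13), Hspe1 (-0.02) and Dnajb1 (0.04) included 0. The difference in Hspb1 was not stable, as the log2 ratio was 0.51 without the 1% of cells with the largest member share and 0.19 by the mean of each cell's own CPM. By that mean Dnaja4 was at 60.4 and 94.0 (0.64), a smaller difference that still passed the threshold.

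The mural and neutrophil classes were small. In smooth muscle and pericyte-like cells (107 and 38 cells) the sum was 22740 and 17923 CPM (-0.34, -0.39 to -0.30), and Hspa1a at 5829 and 3897 CPM (-0.58) stood just under the threshold. Dnajb1 (-0.50), Hspe1 (-0.49), Hspb1 (-0.29), Hspa1b (-0.29) and Hspa8 (-0.23) were lower too, the intervals of Hspd1 (-0.28), Bag3 (-0.03) and Hsph1 (0.01) included 0, and Dnaja4 had 60 and 12 UMIs. None of 9 genes passed it, beside 7.40% of all 1811 genes upwards and 10.8% downwards. In neutrophil-like cells (98 and 36 cells) 4 genes had enough UMIs. Hspa1a was at 682 and 1231 CPM (0.85, 0.52 to 1.18) and Hspb1 at 528 and 43.2 CPM (188 and 4 UMIs, -3.61, -5.50 to -2.23), so 1 passed in each direction, beside 21.3% and 7.08% of all 607 genes. Hspa1b was at 949 and 1307 CPM (0.46) and Hspa8 at 1126 and 821 CPM (-0.46). The other 6 genes (Hsph1, Hspd1, Hspe1, Dnajb1, Dnaja4 and Bag3) had 19 to 79 UMIs in Ctrl and 1 to 8 in dKO. The values of Hspa1a and Hspb1 were not stable, with Hspa1a at -0.055 when no doublets were removed and Hspb1 at -0.33 without the 1% of cells with the largest member share. Lymphatic EC-like cells (18 and 13 cells) held 9771 CPM (9184 to 10387) and 10427 CPM (9650 to 11249), and these intervals overlapped.

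**Figure D3:**
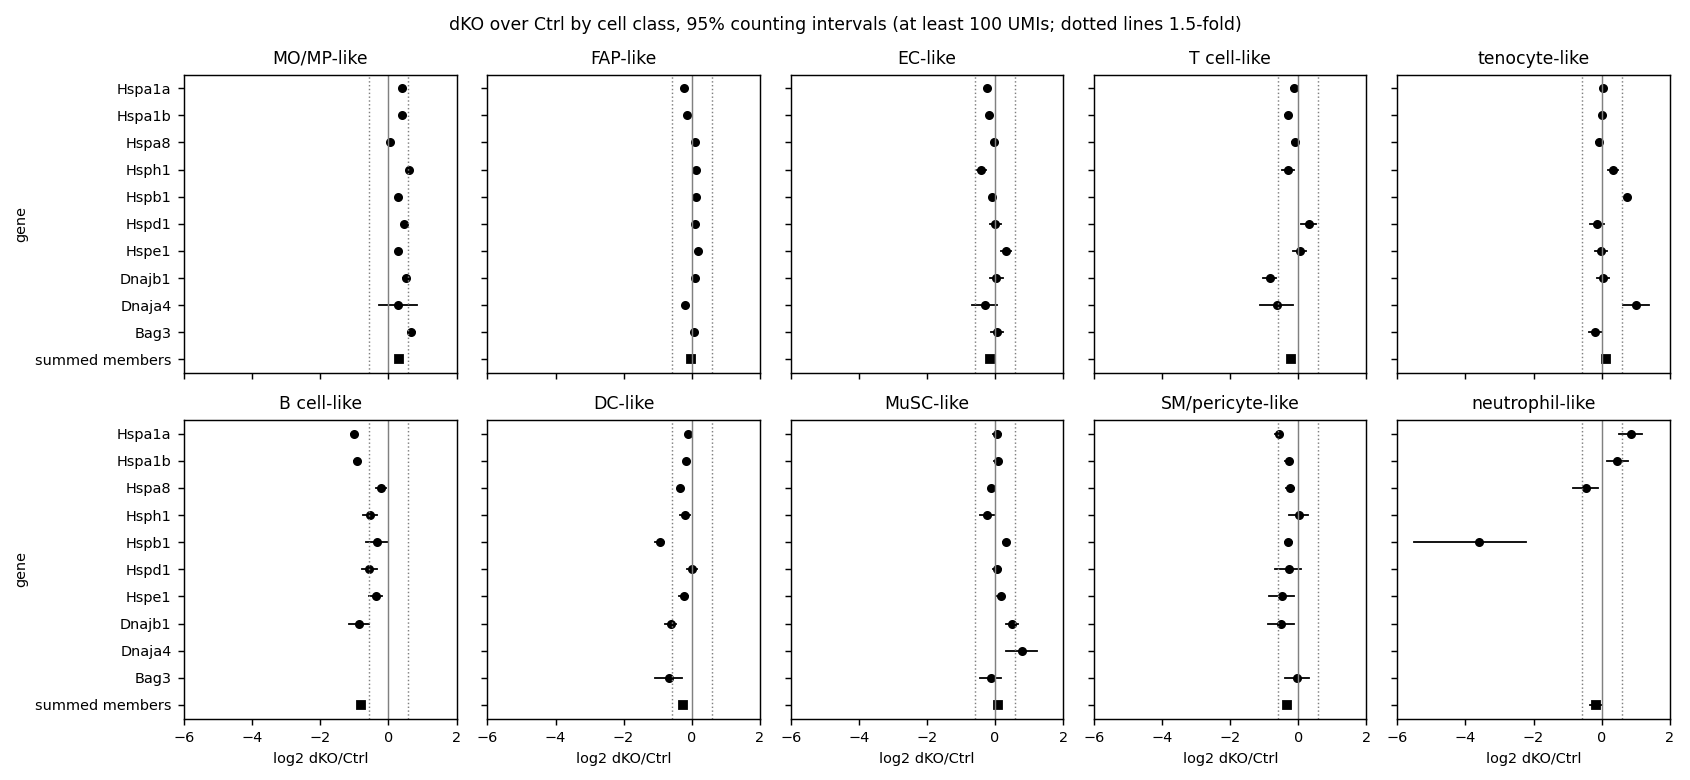
log2 dKO over Ctrl of each gene with at least 100 UMIs (dots) and of the 10 summed (squares) in the 10 classes with at least 100 cells, with 95% counting intervals (1 library per group) and dotted lines at 1.5-fold. All dots in MO/MP-like cells (6 clusters) lie above 0 and all dots in B cell-like cells below 0, and those of FAP-like cells lie within the dotted lines.

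Most of this RNA was carried unevenly by the cells of a class. Thinned to 2000 UMIs, a Ctrl FAP-like cell held a mean of 41.6 and a median of 26 UMIs of the 10 genes, with a maximum of 307, and the 10% of cells with most of them held 33.9% of the total. In dKO the mean was 44.4, the median 24 and the maximum 347, and the top 10% held 36.6%. MO/MP-like cells were lower and more uneven, with medians of 9 and 10 UMIs and 43.0% and 46.3% held by the top 10%. At least 20 UMIs were held by 27.6% of Ctrl (25.2 to 30.04) and 31.9% of dKO (29.1 to 34.8) MO/MP-like cells, by 58.4% and 55.1% of FAP-like cells, and by 73.8% (69.2 to 78.1) and 62.2% (53.8 to 70.2) of EC-like cells. Unthinned, the shares at 1% were 27.7% and 32.3%, 57.0% and 53.8%, and 71.8% and 65.4%. In the plot of MO/MP-like and FAP-like cells by percentile the libraries run together through most cells and part among the cells with most of this RNA.

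**Figure D4:**
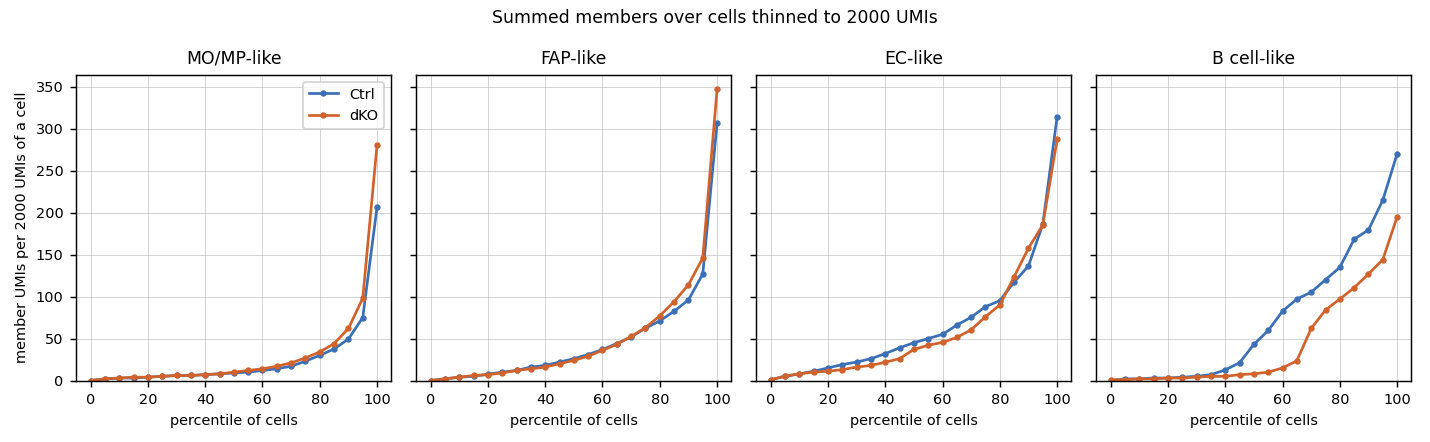
UMIs of the 10 genes in cells thinned to 2000 UMIs, by percentile of cells, in 4 classes of the Ctrl (blue) and dKO (orange) library. B cell-like cells start to climb at a lower percentile in Ctrl, where 55.7% of cells reach 20 UMIs, than in dKO with 35.2%.

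Depth moved with these levels and is given beside them. In MO/MP-like cells the summed level was 13929, 9091 and 6675 CPM from the shallowest to the deepest of 3 depth bins of Ctrl cells, and 15374, 12395 and 7748 CPM in dKO, so dKO was higher in each bin, at median depths of 8143 and 6930 UMIs for the class. Without the Fcna-led cluster the bins stood at 11510, 7972 and 6636 CPM in Ctrl and 13251, 10579 and 7188 CPM in dKO. In FAP-like cells the bins stood at 20614, 23741 and 18554 CPM in Ctrl and 23436, 24491 and 17094 CPM in dKO, which is higher in dKO in the 2 shallower bins and lower in the deepest. The part of depth in these results was not tested beyond these values.

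In FAP-like cells all 45 pairs of the 10 genes had r of at least 0.2 over cells in both libraries, with medians of 0.42 and 0.45. In MO/MP-like cells 24 of 45 pairs did so in Ctrl and 35 of 45 in dKO, and none of these included Dnaja4, whose r with the others lay between -0.024 and 0.13. The highest pair was Hspa1a with Hspa1b, whose transcripts share sequence. Over Ctrl FAP-like cells, r between Hspa1a and Hspa1b was 0.78 (1064 cells), and over dKO FAP-like cells 0.81 (1126 cells). Outside the list, the gene most like the summed 10 in both classes examined was Hsp90aa1, the inducible HSP90, with r of 0.69 and 0.67 over FAP-like cells and 0.53 and 0.65 over MO/MP-like cells. In FAP-like cells it was followed by Egr1 (0.62 and 0.64), Junb, Jun, Fos, Ccn1, Dnaja1, Hsp90ab1, Btg2 and Atf3 (0.46 and 0.55). In MO/MP-like cells it was followed by Dnaja1 (0.41 and 0.45), Jun, Jund, Junb, Hsp90ab1, Nr4a1, Btg2, Ier5 and Atf3. Of these, Egr1, Junb, Jun, Jund, Fos, Btg2, Nr4a1 and Atf3 are immediate early genes, which are switched on within minutes of a stimulus, while Hsp90ab1 and Dnaja1 are chaperone genes. All cells of a library share its preparation, and these values carry no test.

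A list of 13 immediate early genes was set beside the 10 chaperone genes. It holds genes just named, so its correlation with them restates that likeness and is no separate evidence. Over cells thinned to 2000 UMIs, r between the 2 sums was 0.74 and 0.75 in FAP-like cells, against 0.50 and 0.53 in MO/MP-like cells and 0.72 and 0.61 in EC-like cells, but 0.28 (97 cells) and 0.49 (71 cells) in B cell-like cells. In MO/MP-like cells the list stood at 5739 and 7448 CPM (log2 ratio 0.38, 0.36 to 0.39), all 13 genes had ratios above 1 and 3 of 13 passed 1.5-fold, beside 4.35% of all genes, with Atf3 (0.73) and Egr1 (0.72) highest and Jun (0.08) and Nr4a1 (0.22) lowest. The median gene of the list was at 0.41 there, beside -0.02 over all genes. Without the Fcna-led cluster the log2 ratio of the list was 0.37 and 4 of 13 passed, beside 4.53%. In FAP-like cells it was at 15716 and 15050 CPM (-0.06), with Jun (-0.24) and Fos (-0.18) lowest and Ier3 (0.33) and Nr4a1 (0.27) highest, and none of 13 passed. In B cell-like cells it was at 7386 and 5693 CPM (-0.38), and 2 of 9 genes with enough UMIs passed downwards, beside 3.26%. In MO/MP-like and B cell-like cells the immediate early genes thus had the sign of the heat shock genes, and their part in the result was not tested. In MuSC-like cells they did not, with the list at 4594 and 3851 CPM (-0.25) and 6 of 13 genes past 1.5-fold downwards, beside 13.4% of all genes. In FAP-like cells 6 of 13 early genes and 7 of 10 heat shock genes had ratios above 1. Their median log2 ratios were -0.04 and 0.08, beside -0.05 over all genes. In tenocyte-like cells the list was at 19478 and 16324 CPM (-0.26).

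Other chaperones of the same pathway (52 genes, among them HSP90, the cytosolic chaperonin and further J-domain and BAG proteins) were also examined by class. In MuSC-like cells their sum had a log2 ratio of 0.18 (0.15 to 0.21). There 31 of the 39 genes with enough UMIs were above 1, with a median log2 ratio of 0.15 beside -0.01 over all genes. Of the 39, 2 passed 1.5-fold upwards and 1 downwards, no larger shares than the 7.51% and 13.4% of all genes. In MO/MP-like cells their sum had a log2 ratio of 0.19, but 27 of the 45 genes with enough UMIs had ratios below 1, the median was -0.05, and none passed 1.5-fold upwards and 1 downwards, beside 4.35% and 4.73% of all genes (sum 0.16 and the same counts without the Fcna-led cluster). Hsp90aa1 was the highest of them, at 1556 and 2318 CPM (0.58), and Serpinh1, the collagen chaperone, the lowest (-0.65). The others named by rank were Dnajb2 (0.48) and Bag4 (-0.40). In FAP-like cells none of 48 passed and the median was 0.07, with Cryab (0.40) and Cct3 (0.34) highest and Dnajc7 (-0.24) and Hspb2 (-0.20) lowest. In B cell-like cells 1 of 15 passed downwards, beside 3.26% of all genes, and the sum was at -0.18.

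Genes of the endoplasmic reticulum and its stress response (15 genes) did not follow the 10 genes in most classes. Many of the 15 are chaperones that serve secreted proteins, but others, such as the transcription factor genes Ddit3 and Xbp1, are not. The sum of the 15 went down in MO/MP-like cells (5233 and 4922 CPM, -0.09, or -0.12 without the Fcna-led cluster) and up in FAP-like cells (6805 and 7582 CPM, 0.16), and it was level in B cell-like cells (2771 and 2773 CPM). In tenocyte-like cells it had the sign of the 10 genes, at 0.11 beside 0.11. In MO/MP-like cells 1 of 15 passed upwards, near the 4.35% of all genes, which was Ddit3 (0.60), while Sdf2l1 (-0.39) and Canx (-0.37) were lowest and Dnajb9 (0.15) second highest. In FAP-like cells none passed, with Ddit3 (0.36) and Sdf2l1 (0.34) highest and Pdia3 (-0.03) and Xbp1 (-0.02) lowest. Over cells, r between this list and the summed 10 genes lay between -0.14 and 0.14 in the 5 classes examined.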

How the data were processed

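Droplet single-cell RNA-seq (10x Chromium) of 2 libraries, 1 Ctrl and 1 dKO, was analysed. The authors deposited raw UMI counts per gene and cell for 4527 and 3483 called cells. The submitters' processing notes name Cell Ranger 7.0.0, Seurat 4.3.0, Cufflinks and mm10, and the matrix header names software version 3.0.2. The counts list 0 mitochondrially encoded genes, so no mitochondrial filter could act.

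Cells with at least 500 genes were kept (4335 and 3329). Scrublet in scanpy 1.11.5 (30 principal components) called only 4 and 14 doublets, so in each library the top 7.5% by score were taken out instead (325 and 250 cells), with ties broken by barcode order (52 and 28 tied, 33 and 10 of them removed). The paper gives 4335 and 3329 cells after its own doublet removal, the numbers of the alternative with no doublets removed. Libraries were integrated with Seurat 5.3.0 anchors (R 4.3.3, 2000 variable genes, 40 dimensions, resolution 0.8) after leaving out 90 chaperone, immediate early and reticulum genes. Clusters were named from marker lists, given at least 3 markers enriched 2-fold. Details of naming were set after clusters had been seen, among them a list of genes that left the Sfrp5-led cluster (33 and 19 cells) unnamed.

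UMIs were summed per class and library and divided by the total UMIs of the class (Python 3.11.15, scipy 1.17.1). Ratios carry exact conditional binomial intervals. Scripts were tested on simulated data. All 10 members were named in each class of at least 100 cells; of each other list, the 2 highest and 2 lowest genes in FAP-like and MO/MP-like cells; and the genes most alike by Pearson r. The members and lists were chosen with earlier results of these data known. Alternatives were doublets kept, another cell filter, clustering with the genes kept, without integration or at resolution 0.4, other scaling, per-cell means, and the top 1% of cells left out. Leaving out the Fcna-led cluster was chosen after seeing the data. Sequences come from RefSeq windows of GRCm38.p6 and positions from GENCODE M21, matched by symbol.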

Additional observations from a re-analysis of the deposited data

Results flagged for a closer look

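Several genes had ratios past 1.5-fold in opposite directions in different cell classes. With 1 library per group none of these differences between classes was tested. Bag3 had a log2 dKO/Ctrl ratio of 0.67 in MO/MP-like cells and -0.68 in dendritic cell-like cells. Without the Fcna-led cluster the MO/MP-like value was 0.41, and by the mean of each cell's own CPM the dendritic cell-like value was -0.19. Dnaja4 was at 0.78 in MuSC-like and 1.01 in tenocyte-like cells and at -0.64 in T cell-like cells, each from 62 to 135 UMIs per library. By the per-cell mean these values were 1.23, 0.64 and -0.14. Hspa1a was at 0.85 in neutrophil-like and -1.03 in B cell-like cells, but at -0.055 in neutrophil-like cells with no doublets removed. Hspb1 was at 0.75 in tenocyte-like cells, -0.94 in dendritic cell-like cells and -3.61 in neutrophil-like cells, the last from 188 and 4 UMIs. The tenocyte-like value was 0.19 by the per-cell mean, and the neutrophil-like value -0.33 without the 1% of cells with the largest member share.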

How the results depend on the processing

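Of 104 log2 ratios in a class with at least 10 UMIs (5 of them sums, the others of single genes), 104 moved by less than counting error at resolution 0.4, 103 with the chaperone, early and reticulum genes kept for clustering, 95 without integration, 90 with scaling to the median gene ratio, 86 without the 1% of cells with the largest member share, 80 with no doublets removed, 72 with cells of at least 200 genes and 1000 UMIs and 61 by the mean of the per-cell CPM. Of the 15 values of a gene in a class past 1.5-fold with at least 100 UMIs, those settings left 15, 15, 14, 15, 12, 12, 11 and 10. The summed log2 ratio of MO/MP-like cells moved from 0.30 to 0.26 with no doublets removed, 0.32 by the per-cell mean and 0.32 by scaling, and to 0.23 without the Fcna-led cluster, an alternative chosen after seeing the data that also left 2 of 10 gene values within counting error and none of 2 past 1.5-fold. That of FAP-like cells moved to -0.031 (200 genes), 0.10 (per-cell mean) and 0.032 (scaling). That of EC-like cells moved to -0.089 with no doublets removed, -0.11 (200 genes), -0.16 (without the top 1%), -0.071 (per-cell mean) and -0.11 (scaling). That of B cell-like cells moved to -0.69 by the per-cell mean. That of MuSC-like cells moved to -0.026 with no doublets removed, -0.16 (200 genes) and 0.20 (per-cell mean). The sign changed, mostly among values under 1.5-fold, for 9 values with no doublets removed, 13 with 200 genes, 4 with the genes kept for clustering, 5 without integration, none at resolution 0.4, 8 without the top 1%, 16 by the per-cell mean and 5 by scaling. The values past 1.5-fold that changed sign, with genes of 10 to 100 UMIs counted too, were all in neutrophil-like cells: Hspa1a -0.055 with no doublets removed; Hsph1 0.44, Hspe1 0.95, Dnaja4 0.18 and Bag3 0.44 with 200 genes; Hspe1 0.49 and Dnaja4 0.40 without the top 1%; and Hspe1 0.11 by the per-cell mean. The cause was not tested. No paired analysis was possible because each group has 1 library. Low counts, under 100 UMIs, limit Bag3 and Dnaja4 in B cell-like cells and 6 of 10 genes in neutrophil-like cells. They also limit Bag3 and Hspb1 in T cell-like cells, and Dnaja4 in dendritic cell-like and in smooth muscle and pericyte-like cells.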

Other observations

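A cluster led by Sfrp5 that took no class name held 33 Ctrl and 19 dKO cells. The summed level of the 10 genes there was 22565 CPM in Ctrl and 4898 CPM in dKO.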
